A study of Mus musculus with 24 samples.

Results

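The 64 long intergenic noncoding RNAs (lincRNAs) described here were the expressed ones among 5629 genes with that biotype in a count table of 55487 mouse genes. A gene was taken when its mean over 24 libraries was at least 5 CPM (the gene's count divided by the library's total and scaled to 1000000). Members were thus selected on their measured mean level, and the levels below are a description. The libraries were bulk RNA-seq libraries of innate lymphoid cells (ILCs) sorted from mouse small-intestinal lamina propria, in 4 populations that the labels call ILC1, NKp46, CCR6 and DN, with 3 libraries of each genotype per population. Mice labelled DKO carried Vav1-Cre, a recombinase driven by a promoter active in blood cells, together with floxed alleles of both Nr1d1 and Nr1d2, the genes for the nuclear receptors REV-ERBα and REV-ERBβ. Mice labelled WT were littermates that carried the floxed alleles too, and both genotypes were 8 to 12 weeks old. The labels do not spell out DN, and nothing in them states that the 3 libraries of a group are 3 animals. The p-values thus refer to library-to-library spread, which may be technical.

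LincRNAs are transcribed from DNA between protein-coding genes, usually spliced and polyadenylated like messenger RNA, but are not known to be translated as a class. Some stay in the nucleus and organise it or silence chromatin, some are made mainly to release small RNAs from their introns, and many have no known role. REV-ERB proteins repress transcription at promoters and enhancers that hold their binding element, and they belong to the circadian clock, which sets the time of day at which many genes are read.

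Library totals ranged from 12763228 to 84395154 counts. Counts of Nr1d1 were higher in DKO than in WT libraries of each population, for example 457 to 527 against 48.6 to 127 CPM in ILC1, so gene-level counts of the targeted genes do not check the genotype labels. Of the sorting markers, Ccr6 stood at 708 to 1519 CPM in the CCR6 libraries and at most 41.6 CPM in the other populations, and Ncr1, which encodes NKp46, stood at 2.46 to 64.4 CPM in CCR6 and DN against 402 to 1944 CPM in ILC1 and NKp46. Summed levels of 6 T cell markers were 1774 to 1939 CPM in WT DN, 507 to 634 CPM in DKO DN and 48.2 to 374 CPM elsewhere. Summed levels of 5 markers of ILC2, another kind of ILC, were 960 to 1234 CPM in WT DN. They were 564 to 780 CPM in DKO DN and 322 to 539 CPM elsewhere. Summed levels of 7 myeloid markers were 70.3 to 564 CPM in WT ILC1, 21.3 to 48.8 CPM in DKO ILC1 and 6.56 to 64.4 CPM elsewhere. WT ILC1 library 2 was the shallowest and stood apart in 4 Y-linked genes, whose summed level was 7.6 CPM there and 0.0845 to 0.72 CPM in the other 23 libraries.

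The 64 lincRNAs took 0.322 to 0.571% of the counts of a library. Malat1, a nuclear RNA of the speckles where splicing factors gather, was the most abundant by CPM at 1120, followed by AW112010, an RNA of activated immune cells that has been reported to encode a protein, at 900 CPM. These 2 made up 50.2% of the lincRNAs' summed CPM, and the top 10 made up 78.0%. The median lincRNA stood at 12.7 CPM. The median count of each member over the 24 libraries had itself a median of 523, and 6 of the 1536 values were 0. The lowest members inside the threshold were Gm34455 at 5.34 CPM, Gm20735 at 5.15 CPM and E230001N04Rik at 5.13 CPM, and the highest outside it were Gm20342 at 4.97 CPM, 1700040D17Rik at 4.89 CPM and Gm15232 at 4.74 CPM.

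**Figure D1:**
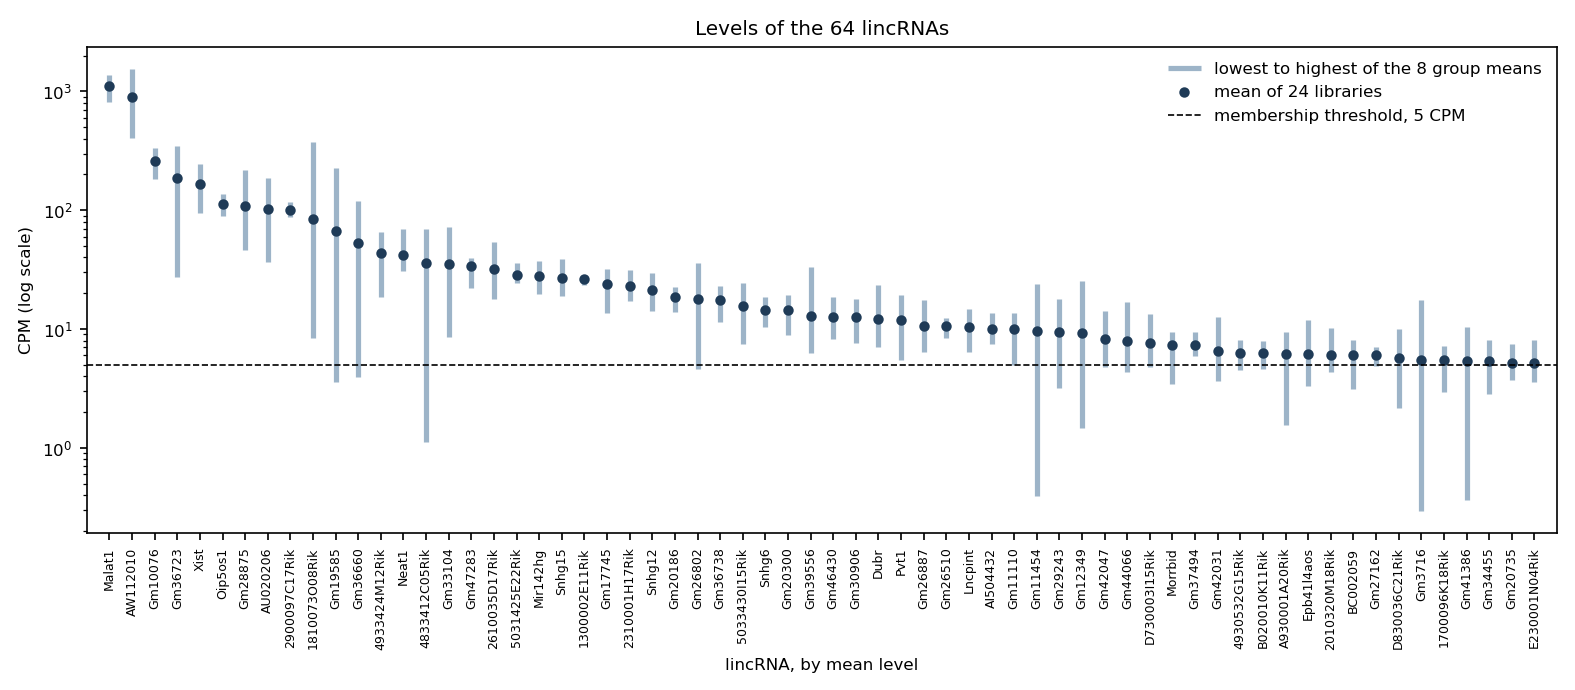
Mean level of each of the 64 lincRNAs over 24 libraries (points, CPM on a log axis) with the span from the lowest to the highest of the 8 group means (bars, each group 3 libraries). Malat1 and AW112010 stand above the rest, and Gm11454, Gm3716 and Gm41386 have group means from under 1 CPM to over 10 CPM.

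Per kilobase of exon the order was different. AW112010 led at 1120 CPM per kilobase, then Gm10076, a single-exon gene of 384 bases, at 670 CPM per kilobase, Malat1 at 160 CPM per kilobase and Mir142hg at 103 CPM per kilobase. Exonic lengths ran from 269 bases for Mir142hg to 20771 bases for Neat1, with a median of 2035 bases, and 11 members had 1 exon block. Spearman's rho between exonic length and mean CPM was 0.136 across the 64 genes, which are not independent replicates. The nearest protein-coding gene lay within 10 kb for 30 members and over 100 kb away for 8. Exons of 20 members overlapped exons of another annotated gene, among them Xist, Neat1, Malat1, Pvt1, Snhg6, Snhg12 and Snhg15, and without a stated strand setting reads of such pairs cannot be told apart. All 64 IDs were found in GENCODE release M21, where 62 kept the lincRNA type, Gm47283 was typed as protein-coding and Snhg15 as a processed transcript.

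Expression was broad for most members: 60 had a count in all 24 libraries, and 38 reached 5 CPM as a mean in all 8 groups. The highest group mean fell in WT ILC1 for 18 members, WT CCR6 for 15, DKO CCR6 for 9, WT NKp46 for 7, DKO NKp46 for 6, DKO DN for 6 and DKO ILC1 for 3. Levels were most even for 1300002E11Rik, whose highest group mean was 1.22 times its lowest, and for 2900097C17Rik, at 1.34 times. They were least even for Gm19585, 4833412C05Rik, Gm11454 and Gm3716, at 62.3, 62.0, 61.1 and 59.6 times. Without their highest group, 5 members would fall below the threshold: Gm3716 without DKO CCR6, Gm41386 and Gm34455 without WT NKp46, and Gm20735 and E230001N04Rik without WT ILC1. Such members had to differ between groups, so counts over all 64 members are descriptions.

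The first comparison concerned the 4 sorted populations of WT mice, each set against the mean of the other 3 on the log2 scale. ILC1 are type 1 cells that make interferon-γ, and the NKp46 and CCR6 populations are subsets of the type 3 cells, known for making interleukin-22. In bulk samples, fewer cells of a type and less RNA per cell cannot be told apart. A gene was called at an adjusted p under 0.05 by the quasi-likelihood F test of edgeR, where p-values were adjusted over 21286 genes by the Benjamini-Hochberg method, and all edgeR p-values below are of this kind. Any difference among the 4 WT populations was called for 29 of 64 lincRNAs (45.3%). It was called for 19.1% of all tested genes and 29.1% of the 9137 protein-coding genes at the same threshold of 5 CPM. Those protein-coding genes were not matched to the lincRNAs in level.

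WT ILC1 differed from the rest in 26 lincRNAs, 14 higher and 12 lower, where 9.83% of all genes were called higher and 8.49% lower. Gm19585, a lincRNA with 6 exon blocks on GRCm38 chromosome 17, 51986415 to 52163976, marked ILC1 by the greatest amount. Its 3 libraries stood at 247, 208 and 219 CPM in WT ILC1, 40.2, 38.1 and 37.0 CPM in WT NKp46, 53.4, 44.9 and 47.4 CPM in WT DN, and 2.58, 3.87 and 4.37 CPM in WT CCR6. No ILC1 library overlapped another population, and the difference was 3.66 ± 0.16 (log2, SE), at an edgeR adjusted p of 3.6e-13. Next among the lincRNAs higher in ILC1 were Gm33104 at 1.72 ± 0.14, Gm44066 at 1.40 ± 0.25, Gm29243 at 1.38 ± 0.26 and Gm36723 at 1.33 ± 0.18 on the log2 scale. AW112010 stood at 1541 ± 243 CPM in WT ILC1 (SD, n = 3), 1088 ± 74.6 CPM in WT NKp46, 892 ± 35.2 CPM in WT DN and 495 ± 52.2 CPM in WT CCR6. Its ILC1 difference was 1.06 ± 0.11, at an edgeR adjusted p of 1.8e-07.

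Among the lincRNAs lower in WT ILC1, 4833412C05Rik measured 0, 0 and 3.34 CPM there and 18.7 to 39.7 CPM in the other 9 WT libraries. The fitted difference was -4.44 ± 0.66, a size that depends on the fit because 2 of the 3 libraries had no count. Gm11454 measured 0 to 1.74 CPM in WT ILC1 against 4.19 to 17.2 CPM in the other WT libraries, and its difference was -3.16 ± 0.68. Gm41386 at -3.10 ± 0.82, Gm26802 at -2.24 ± 0.40 and A930001A20Rik at -2.16 ± 0.36 followed. Xist, the RNA that coats and silences 1 X chromosome in female cells, was present in all 24 libraries at 69.1 to 291 CPM. It was lower in WT ILC1 by edgeR at -0.70 ± 0.21 (adjusted p 0.020), and without the library that stood apart in Y-linked genes the difference was -1.16 ± 0.18. The call of Xist was lost without WT ILC1 library 1, at -0.48 ± 0.22 (0.13), without library 3 (0.076) and with only the WT groups fitted (0.053). Without the library that stood apart the ILC1 count was 24, and Dubr, Morrbid, Epb41l4aos and Gm20735 lost their calls. The part of the myeloid markers, which were highest in WT ILC1, was not tested.

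WT CCR6 differed from the other WT populations in 23 lincRNAs, 14 higher (7.31% of all genes were higher) and 9 lower (5.75% lower). The CCR6 population resembles lymphoid tissue inducer cells, and 1810073O08Rik, on chromosome 17, 83917937 to 83921606, stood highest there. It measured 302, 455 and 364 CPM in WT CCR6, 61.8, 87.8 and 67.4 CPM in WT DN, 35.8, 36.9 and 18.5 CPM in WT NKp46, and 8.74, 8.23 and 8.11 CPM in WT ILC1. These 4 sets of libraries did not overlap, and the CCR6 difference was 3.75 ± 0.20, at an edgeR adjusted p of 1.2e-11. Gm12349 stood at 23.5 ± 1.55 CPM in WT CCR6 (SD, n = 3) and between 1.61 ± 1.05 and 4.11 ± 0.86 CPM in the other WT populations, a difference of 3.23 ± 0.25 (log2, SE). Gm3716 at 2.25 ± 0.50, Gm11454 at 2.03 ± 0.50, 4833412C05Rik at 1.84 ± 0.44 and Gm26802 at 1.65 ± 0.32 were also higher. Libraries of Gm3716 and 4833412C05Rik overlapped those of other WT populations. Gm3716 averaged only 3.75 CPM in WT CCR6, against 0.904 CPM in the other WT populations, and would fall below the membership threshold without DKO CCR6.

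On the lower side of WT CCR6, Gm19585 differed by -4.44 ± 0.24, Gm36723 by -3.04 ± 0.23, Gm33104 by -2.54 ± 0.17, Gm29243 by -2.03 ± 0.31, AU020206 by -1.41 ± 0.19 and Gm11110 by -1.28 ± 0.24. In none of these 6 did a WT CCR6 library overlap another WT library. Gm36723, a gene with 20 exon blocks whose nearest protein-coding gene is Id2, the transcriptional regulator that all ILCs need, measured 33.1, 19.8 and 29.3 CPM in WT CCR6 against 94.0 to 402 CPM in the other WT libraries. Id2 itself did not pass the test in the same contrast, at 0.07 ± 0.11 (edgeR adjusted p 0.76). AW112010 was lower in WT CCR6 by -1.27 ± 0.12 and Morrbid by -1.21 ± 0.28. Without WT CCR6 library 3 the calls of Morrbid and Gm3716 were lost.

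WT NKp46 differed in 7 lincRNAs, 4 higher (2.24% of all genes) and 3 lower (1.97% of all genes). Gm36723 was higher by 1.91 ± 0.17, Gm36660 by 1.17 ± 0.20, Gm33104 by 1.04 ± 0.14 and Neat1 by 0.93 ± 0.20, while Gm12349, Gm44066 and 1810073O08Rik were lower by -1.30 ± 0.30, -1.20 ± 0.29 and -1.01 ± 0.24. Neat1 is the scaffold of paraspeckles, nuclear bodies that hold RNA-binding proteins, and measured 45.8, 82.1 and 80.0 CPM in WT NKp46 against 23.9 to 46.8 CPM in the other WT libraries. The NKp46 libraries overlapped the others only through the first of them. The count of 7 fell to 3 without WT NKp46 library 3, which ended the calls of Neat1, Gm12349, Gm44066 and 1810073O08Rik. The calls of Neat1 and Gm44066 were also lost without library 2, and that of Gm12349 without library 1 or with only the WT groups fitted. The 4 WT contrasts share their libraries and are not independent of each other.

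WT DN differed in 2 lincRNAs, both higher (2.6% of all genes were called higher and 0.437% lower). These were 4833412C05Rik at 1.63 ± 0.45 (edgeR adjusted p 0.049) and Gm19585 at 0.63 ± 0.17 (edgeR adjusted p 0.045). Gm19585 was lower in WT DN on the plain CPM scale, at 48.6 against a mean of 88.9 CPM over the other 3 populations, which include WT ILC1 at 225 CPM. Under most alternatives 1 or both calls were lost. T cell markers and ILC2 markers were highest in WT DN, and their part in these differences was not tested.

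**Figure D2:**
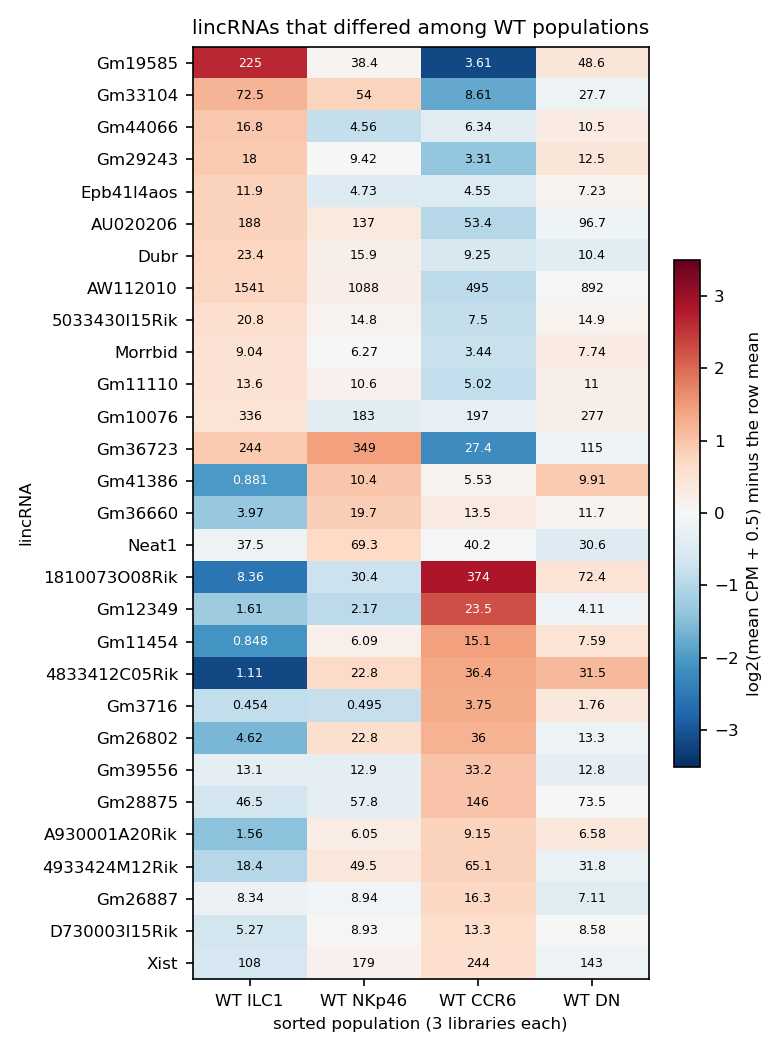
The 29 lincRNAs called for any difference among the WT populations, with the mean CPM of 3 libraries printed in each cell and the colour giving log2(mean CPM + 0.5) minus the mean of its row. Gm19585 falls from 225 CPM in WT ILC1 to 3.61 CPM in WT CCR6, and 1810073O08Rik runs from 374 CPM in WT CCR6 to 8.36 CPM in WT ILC1.

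The second comparison, DKO against WT within each population, addressed which lincRNAs differ in cells whose REV-ERB genes were targeted. In ILC1, 2 lincRNAs were called higher (0.78% of all genes) and 0 lower (0.277% of all genes). An unadjusted edgeR p under 0.05 was found there for 16 of 64 members and for 2874 of all 21286 genes. DESeq2 and limma voom also called 0 lower there. In NKp46, 3 were higher (1.99%) and 3 lower (2.17%), in CCR6 3 were higher (1.93%) and 2 lower (2.04%), and in DN 4 were higher (1.49%) and 2 lower (1.34%). Among protein-coding genes at the same threshold, 1.85% were called for ILC1 against 3.12% of the lincRNAs. The shares were 6.91% against 9.38% for NKp46, 7.85% against 7.81% for CCR6 and 5.64% against 9.38% for DN. The median log2 difference of the 64 members was -0.19 (ILC1), -0.03 (NKp46), 0.04 (CCR6) and 0.09 (DN), beside 0.00, -0.02, -0.02 and -0.04 over all genes tested. In all, 12 lincRNAs were called in at least 1 population. The 4 genotype contrasts share no libraries but share 1 estimate of spread per gene. The labels do not say whether same-numbered libraries of different populations come from 1 animal. Agreement among populations is thus not shown to be independent.

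Gm36660 was the 1 lincRNA called in all 4 populations, higher in DKO each time. It is a predicted gene with 2 exons on the minus strand of GRCm38 chromosome 12, 80018415 to 80081434, and 26320 bases from Zfp36l1, which encodes an RNA-binding protein that speeds messenger RNA decay. The transcript is 3871 bases long, and its first 150 bases, from chr12:80081285-80081434 on the minus strand, are shown because this RNA carries the most regular genotype difference of the group. They lie within exon 1, and no bases are in capitals.
Gm36660: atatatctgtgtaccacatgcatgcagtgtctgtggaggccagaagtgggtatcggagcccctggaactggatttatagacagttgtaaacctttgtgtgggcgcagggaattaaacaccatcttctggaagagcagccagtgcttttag

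In ILC1, Gm36660 measured 2.64, 4.0 and 5.28 CPM in WT and 45.9, 33.3 and 39.1 CPM in DKO. In NKp46 the WT libraries stood at 16.8, 22.1 and 20.1 CPM and the DKO libraries at 110.1, 107 and 97.9 CPM. The WT and DKO libraries were far from overlapping in both populations, and they did not overlap in the other populations either. In CCR6 the levels were 19.7, 11.7 and 9.05 CPM in WT and 132, 95.7 and 97.0 CPM in DKO, and in DN they were 13.5, 10.0 and 11.6 CPM in WT and 142, 109 and 105 CPM in DKO. The log2 difference was 3.25 ± 0.29 in ILC1 (SE; edgeR adjusted p 8.8e-07), 2.41 ± 0.27 in NKp46 (6e-06), 3.04 ± 0.28 for CCR6 (1.8e-07) and 3.35 ± 0.28 for DN (7.7e-08). Zfp36l1, at a mean of 2347 CPM, did not pass the test in any of the 4 contrasts, at log2 differences of 0.18 ± 0.10, -0.12 ± 0.10, -0.03 ± 0.10 and -0.15 ± 0.10.

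A pair of other lincRNAs, 4833412C05Rik and Gm28875, joined Gm36660 in having every DKO library above every WT library in all 4 populations. These 3 are 4.69% of the members, where 0.822% of all genes and 1.62% of the protein-coding genes at the same threshold had this pattern. The opposite pattern, every DKO library below every WT library in each population, was seen for 0 members and for 0.381% of all genes. Lack of overlap within a single population was common. In CCR6, 23.4% of members were higher and 20.3% lower in this way, beside 13% and 20% of those protein-coding genes. The DN shares were 20.3% and 21.9%, beside 16.1% and 14.9%. For NKp46 they were 15.6% each way, beside 12.6% and 15.9%. ILC1 had 10.9% and 4.69%, beside 9.38% and 3.51%. Where a gene was not called, such separation is a description only. Gm28875 is a single-exon gene on chromosome 12, 104925501 to 104926689, 3244 bases from Syne3, which encodes a protein of the nuclear envelope. In DN it measured 71.0, 72.7 and 76.8 CPM in WT and 132, 176 and 154 CPM in DKO, and in CCR6 154, 140.3 and 144 CPM in WT and 221, 213 and 218 CPM in DKO. Its log2 difference was 1.07 ± 0.21 in DN (edgeR adjusted p 0.0044) and 0.79 ± 0.21 in NKp46 (0.036), both called, and 0.61 ± 0.21 in CCR6 (0.14) and 0.50 ± 0.21 in ILC1 (0.31), which missed the threshold. The NKp46 call of Gm28875 was lost under 6 of 13 alternatives, with the NKp46 libraries fitted alone and without WT library 2 or 3 or any 1 of the DKO libraries. Syne3 was not called in any of the 4 genotype contrasts.

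The gene 4833412C05Rik, on chromosome 7, 67784538 to 67804139, measured 0, 0 and 3.34 CPM in WT ILC1 and 11.6, 12.8 and 10.8 CPM in DKO ILC1. Its fitted difference of 3.13 ± 0.67 (edgeR adjusted p 0.018) ranged up to 12.02 on the log2 scale among the alternatives, reached when the 1 WT ILC1 library with counts was left out, and the call was lost with no filter on low counts, with the ILC1 libraries fitted alone and without DKO ILC1 library 2. In NKp46 the levels were 18.7, 23.3 and 26.2 CPM in WT and 49.5, 58.1 and 49.9 CPM in DKO, and the difference of 1.20 ± 0.59 missed the threshold (edgeR adjusted p 0.32). In CCR6 and DN the DKO levels of 54.4 to 74.6 CPM also stood above the WT levels of 28.8 to 39.7 CPM, with edgeR adjusted p-values of 0.57 and 0.59. So the ILC1 difference was the 1 that was called, while libraries of the genotypes stood apart in all 4 populations. The fit gives each gene 1 estimate of spread from all 24 libraries, those of WT ILC1 included. The adjusted p-values of the other populations thus do not measure the spread of their own libraries. In CCR6 the SE was 0.58, with levels of 36.4 ± 3.18 CPM in WT and 68.9 ± 5.49 CPM in DKO (SD, n = 3).

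Gm3716, on the minus strand of chromosome 5, 64593857 to 64610700, was called higher in DKO in NKp46 and DN. It measured 0.030, 0.531 and 0.925 CPM in WT NKp46 and 5.52, 4.86 and 6.88 CPM in DKO NKp46, and 0.772, 2.59 and 1.92 CPM in WT DN and 17.9, 11.8 and 12.2 CPM in DKO DN. The libraries did not overlap in either population, nor in CCR6, where WT stood at 2.56, 2.93 and 5.77 CPM and DKO at 25.6, 16.1 and 11.1 CPM. The log2 differences were 3.54 ± 0.74 in NKp46 (edgeR adjusted p 0.0061), 3.01 ± 0.71 in DN (0.017) and 2.29 ± 0.68 in CCR6 (0.065). In ILC1 all 6 libraries were under 1 CPM, with a difference of -0.69 ± 0.75. Gm3716 passed the membership threshold through its DKO groups, so a difference by genotype follows in part from the way members were chosen. Its DN call was lost without WT DN library 1 or 3 or DKO DN library 1.

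Gm12349 was called higher in DKO DN, at 3.19, 4.25 and 4.90 CPM in WT and 11.9, 12.0 and 12.0 CPM in DKO, a log2 difference of 1.55 ± 0.34 (edgeR adjusted p 0.010). It did not pass the test in CCR6, where its level was highest, at 23.5 ± 1.55 CPM in WT and 25.3 ± 2.03 CPM in DKO (SD, n = 3). Omission of WT DN library 1 ended the DN call, at an edgeR adjusted p of 0.077. In CCR6, Morrbid measured 4.40, 3.14 and 2.77 CPM in WT and 9.11, 7.29 and 6.81 CPM in DKO, and the libraries did not overlap. Morrbid is a lincRNA next to Bcl2l11, the gene for the death-promoting protein BIM, and is known for setting the lifespan of short-lived myeloid cells. The difference was 1.21 ± 0.32 (edgeR adjusted p 0.030), kept under 8 of 13 alternatives, and Bcl2l11, 15772 bases away, was also higher at 0.71 ± 0.15 (0.0064). Gm36723 rose in the same population from 33.1, 19.8 and 29.3 CPM to 46.0, 42.9 and 70.3 CPM, by 0.99 ± 0.23 (0.013) in edgeR, while Id2, 206800 bases away, fell by 0.76 ± 0.14 (0.0014). The call of Gm36723 was lost without WT CCR6 library 2 or 3 or DKO CCR6 library 3, at edgeR adjusted p-values of 0.12, 0.054 and 0.13.

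Of the lincRNAs lower in DKO, Gm39556 was called in 3 populations. This gene with 5 exon blocks lies on chromosome 15, 74929437 to 74936316, 18735 bases from Ly6e, which encodes a lipid-anchored surface protein. In CCR6 it measured 29.9, 37.5 and 32.3 CPM in WT and 10.2, 6.81 and 8.18 CPM in DKO, a difference of -1.94 ± 0.28 (edgeR adjusted p 8.8e-05). The lowest WT library was thus well above the highest DKO library. In NKp46 it measured 12.1, 14.7 and 11.8 CPM in WT and 5.90, 7.51 and 6.46 CPM in DKO (-0.98 ± 0.27, 0.046), and in DN 13.4, 15.2 and 9.78 CPM in WT and 7.21, 6.39 and 5.29 CPM in DKO (-1.02 ± 0.27, 0.044). Those 2 calls sat near the threshold and were kept under 4 and 6 of 13 alternatives, and the CCR6 call under all 13. In ILC1 the libraries overlapped, at -0.55 ± 0.27 (0.39).

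The CCR6-enriched lincRNA 1810073O08Rik was lower in DKO CCR6, at 302, 455 and 364 CPM in WT and 129, 137 and 101 CPM in DKO. The genotypes did not overlap, and the difference was -1.57 ± 0.27 (edgeR adjusted p 0.00089). In DN the levels were 61.8, 87.8 and 67.4 CPM in WT and 43.0, 46.8 and 27.9 CPM in DKO, also without overlap, but the difference of -0.87 ± 0.27 missed the threshold (0.10). The sorting marker Ccr6 was lower too, at 1333 to 1519 CPM in WT CCR6 and 708 to 852 CPM in DKO CCR6, and its part in this result was not tested. The ILC1-enriched lincRNA Gm19585 was lower in DKO DN, by -1.13 ± 0.22 (edgeR adjusted p 0.0033). It measured 53.4, 44.9 and 47.4 CPM in WT DN and 21.7, 17.3 and 27.5 CPM in DKO DN. Without overlap but not called, it was also lower in DKO ILC1 at -0.50 ± 0.22 (0.32) and in DKO NKp46 at -0.61 ± 0.22 (0.13). In CCR6 it differed by 0.07 ± 0.23 (0.98), with overlap. In DN the summed levels of the 6 T cell markers, the 5 ILC2 markers and the 6 ILC1 markers were lower in DKO too. Those of the ILC1 markers were 638 to 776 against 1038 to 1458 CPM. The part of these markers was not tested.

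In NKp46, Neat1 measured 45.8, 82.1 and 80.0 CPM in WT and 22.3, 32.5 and 42.2 CPM in DKO, with no overlap but only a narrow gap. The sorting marker Ncr1 was lower too, at 771 to 919 CPM in WT NKp46 and 402 to 535 CPM in DKO NKp46, and its part in the NKp46 genotype results was not tested. The difference of Neat1 was -1.12 ± 0.26 (edgeR adjusted p 0.013), and the call was lost without WT NKp46 library 2 or 3 or DKO NKp46 library 1. In the other populations Neat1 did not pass the test, at -0.20 ± 0.26 in ILC1, 0.41 ± 0.26 in CCR6 and 0.38 ± 0.26 in DN. Gm33104, which lies 84638 bases from the interferon-γ receptor gene Ifngr1, measured 48.2, 60.1 and 53.5 CPM in WT NKp46 and 31.0, 30.1 and 35.1 CPM in DKO NKp46, a difference of -0.77 ± 0.18 (0.016). It was called under 10 of 13 alternatives and not without WT NKp46 library 2 or DKO NKp46 library 1 or 2. Elsewhere Gm33104 was not called. Its libraries did not overlap in DN, lower in DKO at -0.63 ± 0.18 (edgeR adjusted p 0.072), or in CCR6, higher at 0.38 ± 0.18 (0.39). In ILC1 they overlapped, at -0.39 ± 0.18 (0.34).

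**Figure D3:**
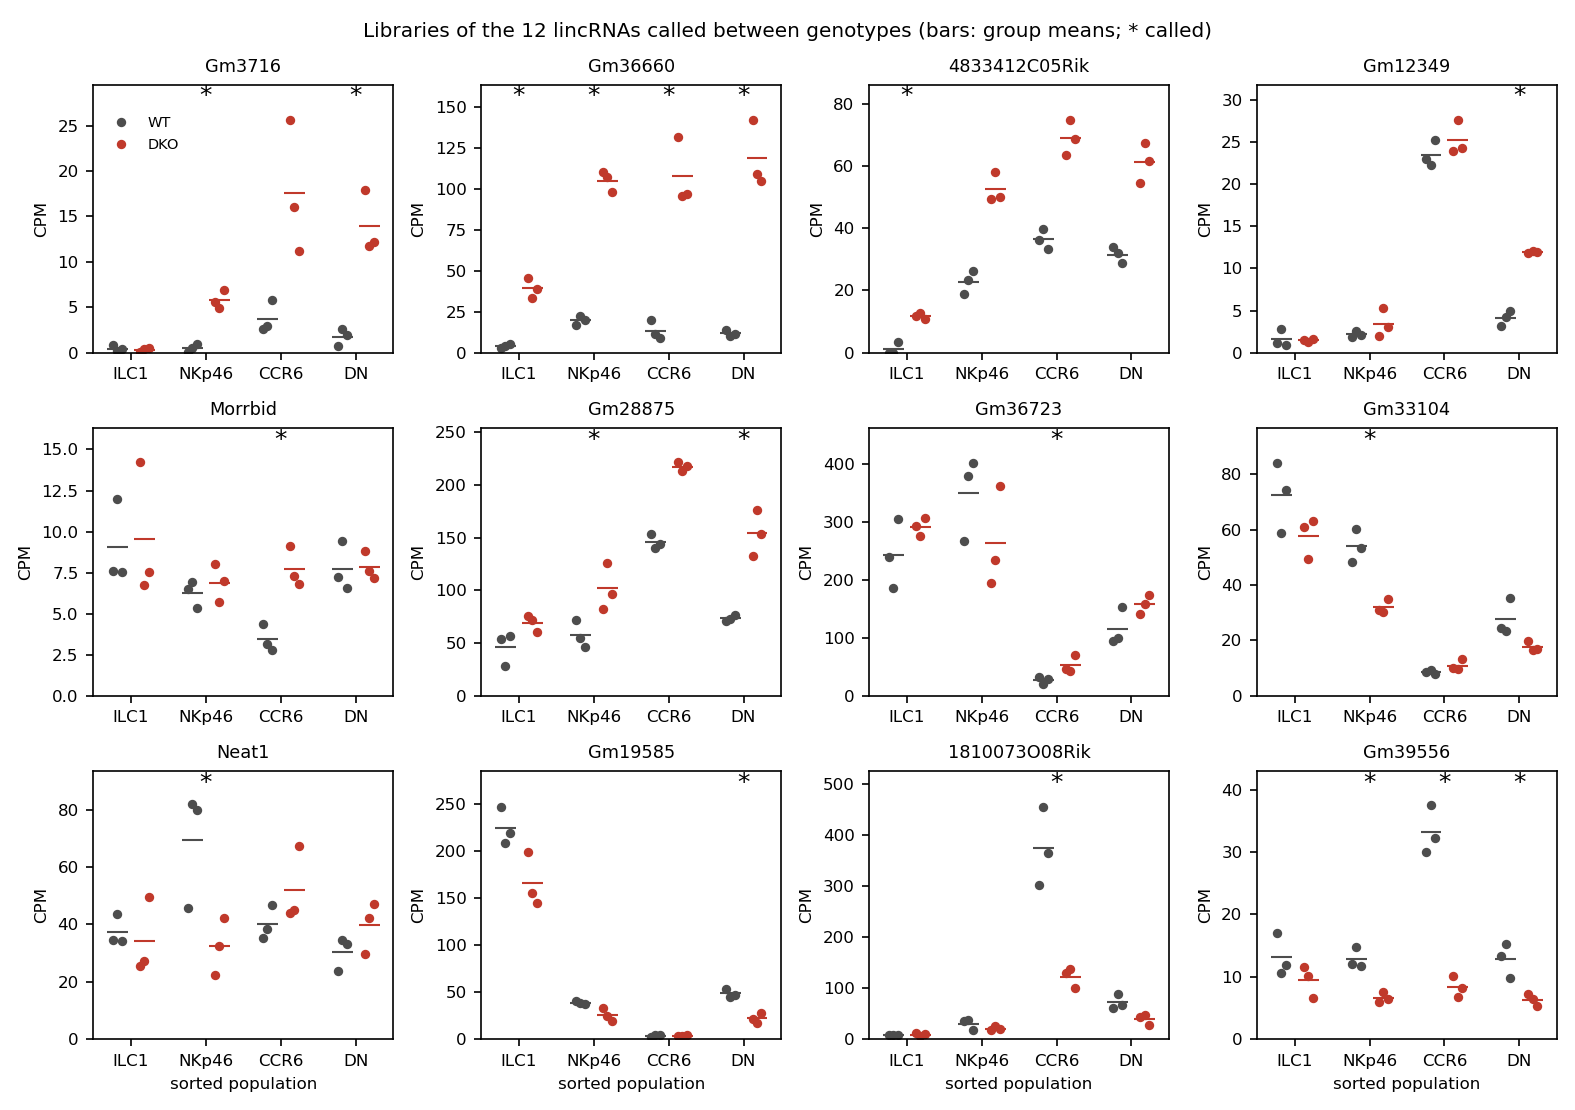
Levels of the 12 lincRNAs called between genotypes, in CPM, with 1 point per library, a bar at each group mean (3 libraries) and an asterisk over each population in which edgeR called the difference. Gm36660 carries an asterisk in all 4 populations, and its DKO libraries of 33.3 to 142 CPM lie above its WT libraries of 2.64 to 22.1 CPM.

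Whether the genotype difference itself varied among the 4 populations was tested with 1 F test per gene. The test called 0 of 64 lincRNAs (1.37% of all genes). At an unadjusted p under 0.05 stood 12 of the 64 and 2547 of all 21286 genes. The lowest edgeR adjusted p-values were 0.063 for Gm33104, 0.067 for Neat1, 0.11 for Gm36723 and 0.12 for Gm3716. DESeq2 called 7 and limma voom called 1, and edgeR called 5 with no filter on low counts and 4 without WT ILC1 library 2, so the count of 0 depends on the fit, the filter and single libraries. A call in 1 population and not in another is therefore not shown to be a difference between populations.

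**Figure D4:**
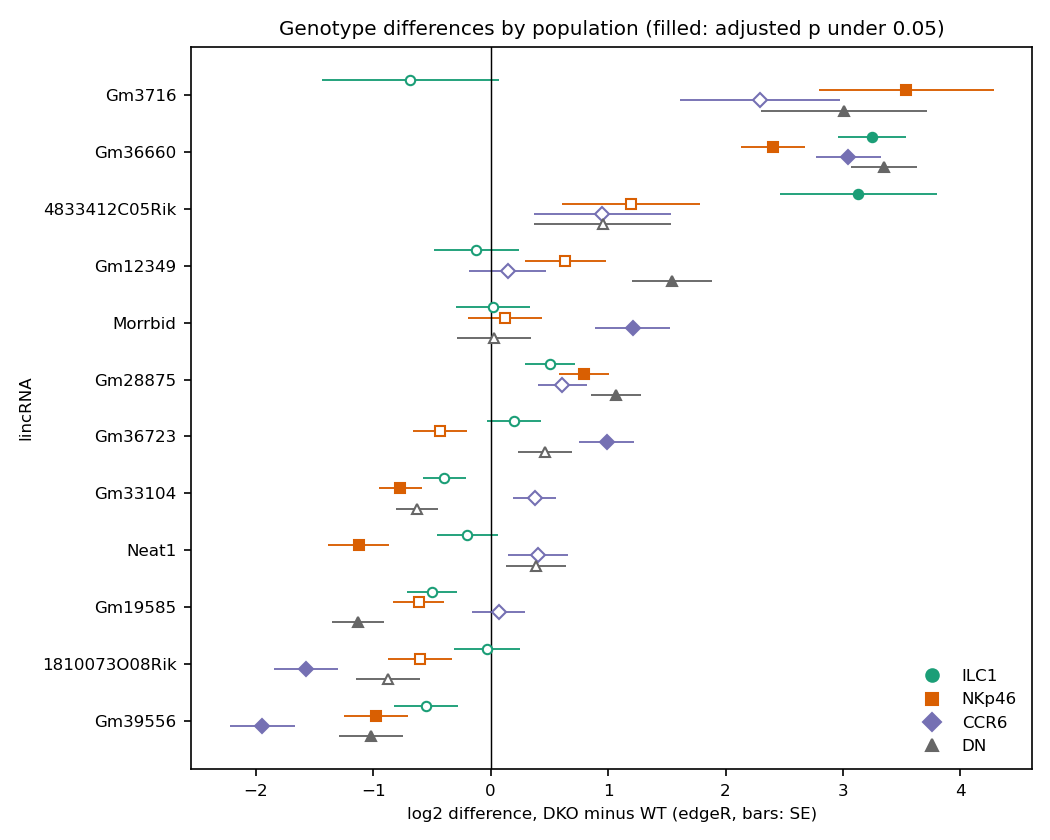
Log2 differences of DKO minus WT for the 12 called lincRNAs in each population, from edgeR, with SE bars; filled symbols passed an adjusted p of 0.05 and open ones did not. Gm36660 lies between 2.41 and 3.35 in all 4 populations, and Gm39556 lies left of 0 in all 4.

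The fitted log2 difference had 1 sign in all 4 populations for 11 members higher in DKO (17.2%, against 10.9% of all genes) and 16 lower (25%, against 13.1% of all genes). For protein-coding genes at the same threshold the shares were 14.9% and 16.9%. Malat1, AW112010, Oip5os1, Mir142hg and Snhg6 were on the lower side in every population, and none of them was called in any. AW112010 in NKp46, at 796 ± 16.9 CPM in DKO and 1088 ± 74.6 CPM in WT (SD, n = 3), was nearest to the threshold, by -0.47 ± 0.14 at an edgeR adjusted p of 0.060. Oip5os1, an RNA conserved across vertebrates and also known as Cyrano, differed there by -0.40 ± 0.12 (0.075). Malat1 differed by -0.67 ± 0.28 in NKp46 and less in the others, with edgeR adjusted p-values of 0.23 to 0.89.

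Of the 20 nuclear architecture and chromatin RNAs listed by role, 5 were members: Malat1, Neat1, Xist, Pvt1 and Lncpint. Neat1 was the 1 of them called by genotype, in NKp46. Pvt1, whose gene lies 47612 bases from Myc, measured 9.43, 9.31 and 9.56 CPM in WT DN and 14.5, 21.3 and 22.2 CPM in DKO DN without overlap, at 1.03 ± 0.36 (edgeR adjusted p 0.17). Lncpint, an RNA induced by p53, differed by 0.17 to 0.59 on the log2 scale in the 4 populations and was not called. Of the snoRNA host genes, which carry small nucleolar RNAs in their introns, Snhg6, Snhg12, Snhg15 and Epb41l4aos were members and 0 of 4 were called by genotype. Snhg15 in NKp46 stood at 11.3, 24.4 and 21.9 CPM in WT and 24.8, 39.8 and 52.8 CPM in DKO, 1.00 ± 0.39 on the log2 scale (0.18).

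Mir142hg was the 1 listed miRNA host gene among the members. It is the host transcript of a miRNA made throughout the blood lineage, on chromosome 11, 87755577 to 87757270. RefSeq (GRCm38.p6) places both mature arms within the intron between its 2 exons, so the counts here are of the exons and not of the miRNA. The arms are shown because the small RNA is the known product of this lincRNA; capitals mark the seed, bases 2 to 8, and the seeds of the arms differ.
mmu-miR-142a-5p: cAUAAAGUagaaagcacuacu
mmu-miR-142a-3p: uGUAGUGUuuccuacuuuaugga
The host measured 37.0 ± 11.1 CPM in WT ILC1 and 29.2 ± 8.40 CPM in DKO ILC1, 32.5 ± 4.46 and 22.6 ± 9.19 CPM in NKp46, 30.6 ± 4.58 and 22.5 ± 2.33 CPM in CCR6, and 27.1 ± 4.66 and 19.8 ± 4.04 CPM in DN (SD, n = 3). The edgeR adjusted p-values were 0.28 to 0.59.

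Promoter windows of 300 bases, 250 before to 50 after the RefSeq start (GRCm38.p6), could be matched to 39 of the 64 members. Sequences of both strands were searched for TAGGTCA, the core of the element that REV-ERB receptors bind, for the E-box CACGTG, and for the D-box forms TTATGTAA and TTACGTAA. Some members had more than 1 window, and their windows numbered 45 in all. TAGGTCA was found in 4 of the 39 members and in 8.89% of their windows, beside 2.61% of 32851 windows of the same length. CACGTG was found in 6 members (13.3% of their windows, beside 7.15%). TTATGTAA was found in 1 (2.22%, beside 0.938%) and TTACGTAA in 0 (0.119% of the 32851). Of the 12 lincRNAs called by genotype, 7 had a window: 0 held TAGGTCA, 0 held CACGTG and 1, Gm3716, held a D-box. A match is a description of letters and not of binding, and an absence says only that the letters are not in the window.

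The 5 stretches around TAGGTCA are shown because this is the element the targeted receptors bind; capitals mark the match, written as TGACCTA where it lies on the other strand. Their genes were not called by genotype in any population. The positions of the matches from the start were -18 in 4933424M12Rik (chr4:107783648-107783694, plus strand), -109 and 19 in Gm26510 (chr17:70925081-70925127 and chr17:70924954-70925000, minus strand), -250 in D730003I15Rik (chr1:191224204-191224230, plus strand) and -153 in 1700096K18Rik (chr5:25529845-25529891, plus strand).
4933424M12Rik: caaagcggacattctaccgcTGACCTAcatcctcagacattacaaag
Gm26510, first: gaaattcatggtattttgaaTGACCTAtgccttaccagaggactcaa
Gm26510, second: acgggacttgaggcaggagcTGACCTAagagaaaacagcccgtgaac
D730003I15Rik: TAGGTCAgccaaactttagcacgaaaa
1700096K18Rik: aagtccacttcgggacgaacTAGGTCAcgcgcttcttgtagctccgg

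Windows of 3 lincRNAs called by genotype are printed in full so that the letters can be read beside their levels: Gm3716 (chr5:64610650-64610949, minus strand), higher in DKO, 4833412C05Rik (chr7:67803447-67803746, minus strand), higher in DKO, and 1810073O08Rik (chr17:83917684-83917983, plus strand), lower in DKO CCR6. Capitals mark the D-box of Gm3716, read there as TTACATAA on the gene's own strand, and the other windows hold none of the motifs searched.
Gm3716: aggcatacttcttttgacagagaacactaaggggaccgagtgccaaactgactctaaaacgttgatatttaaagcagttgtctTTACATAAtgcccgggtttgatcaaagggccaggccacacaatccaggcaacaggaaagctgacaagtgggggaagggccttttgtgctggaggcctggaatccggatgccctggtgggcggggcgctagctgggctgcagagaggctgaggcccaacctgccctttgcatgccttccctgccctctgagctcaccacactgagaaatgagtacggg
4833412C05Rik: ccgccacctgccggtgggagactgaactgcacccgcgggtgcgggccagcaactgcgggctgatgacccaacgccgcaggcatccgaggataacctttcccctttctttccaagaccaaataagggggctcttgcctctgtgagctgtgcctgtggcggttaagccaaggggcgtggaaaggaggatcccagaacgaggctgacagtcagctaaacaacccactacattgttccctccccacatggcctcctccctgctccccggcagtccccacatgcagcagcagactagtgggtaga
1810073O08Rik: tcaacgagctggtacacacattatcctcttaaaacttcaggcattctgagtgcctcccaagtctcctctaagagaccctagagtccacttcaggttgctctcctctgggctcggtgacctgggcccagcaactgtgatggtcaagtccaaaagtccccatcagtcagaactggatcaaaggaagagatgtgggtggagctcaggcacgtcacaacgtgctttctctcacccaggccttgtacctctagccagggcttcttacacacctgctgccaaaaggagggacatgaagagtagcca

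For 53 members the nearest protein-coding gene was itself tested. Across these pairs, Spearman's rho between the log2 difference of the lincRNA and that of its neighbour was 0.378 for WT ILC1 against the rest, 0.524 for WT NKp46, 0.236 for WT CCR6 and 0.265 for WT DN, and 0.0878, -0.0128, 0.233 and 0.0494 for genotype in ILC1, NKp46, CCR6 and DN. These are descriptions across pairs within a contrast, and pairs share their libraries. In WT ILC1, 20 of these lincRNAs and 24 of the neighbours were called, and both genes of a pair in 10 pairs, 9 of them in the same direction. In WT CCR6 the numbers were 19 lincRNAs, 15 neighbours and 6 pairs, 5 in the same direction. In WT NKp46 they were 6, 10 and 3 pairs, all 3 in the same direction, and in WT DN 2, 1 and 0 pairs. By genotype 2 pairs had both genes called, both in CCR6 and 1 in the same direction. These counts were set against no background and are a description. Gm33104 and Ifngr1 moved together among WT populations, at -2.54 ± 0.17 and -1.01 ± 0.13 in CCR6 and 1.72 ± 0.14 and 0.59 ± 0.11 in ILC1. Gm19585 and Satb1, which encodes a chromatin organiser of lymphocytes and lies 153125 bases away, were both higher in WT ILC1, at 3.66 ± 0.16 and 0.97 ± 0.10, but not alike elsewhere. In WT CCR6 Gm19585 was lower at -4.44 ± 0.24 and Satb1 was not called at -0.06 ± 0.10, and in WT NKp46 Gm19585 was not called at 0.15 while Satb1 was lower at -0.90 ± 0.11 (edgeR adjusted p 1.8e-05).

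Libraries carry a number from 1 to 3 in the labels, and some lincRNAs followed that number across populations. Among DKO libraries, 13 members (20.3%) had their highest level in the same number in all 4 populations. So did 6.63% of all genes and 9.97% of the protein-coding genes at the same threshold. Among the same libraries 5 members (7.81%) had their lowest level in 1 number (5.22% of all genes), and among WT libraries 6 members (9.38%) had their highest (5.44%) and 7 (10.9%) their lowest (4.93%). Gm47283, which is annotated at the end of chromosome Y, measured 6.75, 7.10, 12.7 and 10.4 CPM in DKO library 1 of ILC1, NKp46, CCR6 and DN and 40.0 to 61.1 CPM in the other DKO libraries. In WT it was highest in library 1 of every population. The summed level of the 4 Y-linked genes given above was at most 0.72 CPM in every library except WT ILC1 library 2. The source of the Gm47283 counts was not tested. 2610035D17Rik was highest in DKO library 1 of each population, at 25.3 to 45.7 CPM against 12.2 to 26.5 CPM in libraries 2 and 3. Neither of these genes was called by genotype in any population. Of the 13 members highest in 1 DKO number, however, Gm36660, 4833412C05Rik, Morrbid, Gm36723 and Neat1 were called by genotype, and of the 5 lowest in 1 number, Neat1 and Gm33104 were.

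**Figure D5:**
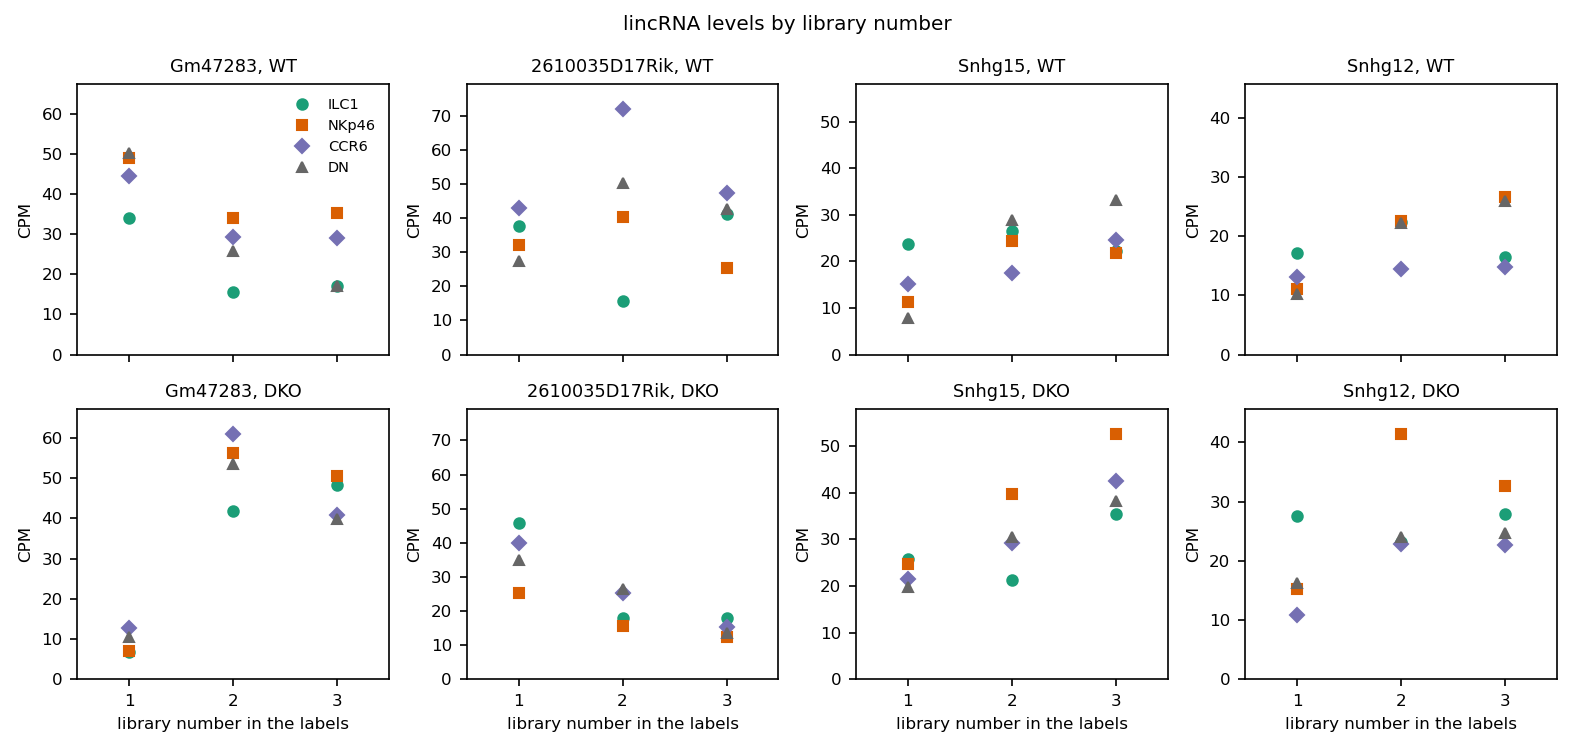
Levels of Gm47283, 2610035D17Rik, Snhg15 and Snhg12 by library number, in CPM, with 1 symbol per population, WT above and DKO below. In DKO, Gm47283 lies at 12.7 CPM or less in library 1 of each population and at 40.0 CPM or more in libraries 2 and 3.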

How the data were processed

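The deposited values are whole-number counts per Ensembl gene, not normalized, and the build is mm10 per the submitters' processing notes. Those notes name STAR 2.7.9a, featureCounts 2.0.3, Salmon 1.5.2, DESeq2 and R 4.1, and which of them made the counts, and with which strand setting, is not given in the sources used here. Libraries came from a low-input SMARTer kit per the labels' protocols, with no molecular identifiers named. One row per Ensembl ID was kept of 55774, 0 columns were left unused, and CPM used each column's total. Coordinates and neighbours came from GENCODE M21 on GRCm38, sequences from RefSeq (GRCm38.p6).

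Counts of all 24 libraries were fitted with edgeR 4.0.16 in R 4.3.3 (TMM factors of 0.932 to 1.07, filterByExpr, robust quasi-likelihood, 1 mean per group, 16 residual degrees of freedom, common biological coefficient of variation 0.573). Standard errors were derived from the F statistics. The code was also run on simulated counts with a smaller spread than these data and equal group means apart from planted changes. That run does not show how the fit performs on these data. Library numbers are shared between groups. Same-numbered libraries correlated above 0.1 in 7 of 12 pairs between genotypes, 9 of 18 between DKO populations and 8 of 18 between WT populations. The main fit did not use the numbers as pairs, but they are not shown to be unrelated. Any variation that libraries of 1 number share was not modelled in that fit. Alternatives were other scalings, no filter, limma 3.58.1 voom, DESeq2 1.42.0, narrower fits, other membership thresholds and omission of each library.

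Named lincRNAs are the 12 most abundant, those on role lists (nuclear architecture, snoRNA hosts, miRNA hosts, lymphocyte lincRNAs), those called by genotype (up to 10 each way per population), up to 6 each way per WT contrast, and 3 on either side of the membership threshold. A few others are named as the most even or the most dependent on library number, chosen after their values were seen. The members and lists were chosen with earlier results of these data known.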

Additional observations from a re-analysis of the deposited data

How the results depend on the processing

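The 77 calls of named lincRNAs were recomputed under 1345 alternative values: 1238 kept the call, 107 lost it and 0 changed direction. All alternatives kept 47 calls, among them 9 of the 19 genotype calls: Gm36660 in 4 populations, Gm3716 in NKp46, Gm39556 and 1810073O08Rik in CCR6, and Gm19585 and Gm28875 in DN. Counts of called lincRNAs moved as follows, and the cause was not tested. By genotype in ILC1 (2) the count was 1 with no filter on low counts, with DESeq2 and with only the groups compared; in NKp46 (6) it was 12 with DESeq2; in CCR6 (5) it was 10 with limma voom and 10 with only the groups compared; in DN (6) it was 11 with only the groups compared. A membership threshold of 10 CPM, which leaves fewer members, gave 15 for WT ILC1 (26), 14 for WT CCR6 (23) and 18 for any WT difference (29). For WT DN (2) the count was 0 with RLE size factors, 1 with library totals only, 1 with no filter, 1 with only the groups compared and 6 with a threshold of 3 CPM. For a differing genotype effect (0) it was 5 with no filter, 1 with limma voom and 7 with DESeq2.

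Leaving out 1 library at a time gave, by genotype, 1 to 2 calls for ILC1 cells, 3 to 6 for NKp46, 3 to 5 for CCR6 and 3 to 5 for DN, and 24 to 27 for WT ILC1, 3 to 10 for WT NKp46, 20 to 27 for WT CCR6, 0 to 2 for WT DN, 24 to 28 for any WT difference and 0 to 4 for a differing genotype effect. The count by genotype fell to 1 in ILC1 without DKO library 2, to 3 in NKp46 without WT library 2 or 3 or DKO library 1 or 2, to 3 in CCR6 without WT library 2 or 3, and to 3 in DN without WT library 1. The differing genotype effect was called for 4 lincRNAs without WT ILC1 library 2, 3 without WT ILC1 library 3, 1 without DKO ILC1 library 3 and 1 without WT NKp46 library 1. Without members that rest on 1 group, an alternative chosen after seeing the data, the counts by genotype were 2, 5, 5 and 5. For the WT contrasts they were 24 (ILC1), 7 (NKp46), 22 (CCR6) and 2 (DN), and 27 for any WT difference.

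With the library number as a replicate block, although not every same-numbered pair correlated above 0.1, the counts by genotype were 2 (ILC1), 8 (NKp46), 5 (CCR6) and 8 (DN). The block gave 28 for WT ILC1, 10 for WT NKp46, 25 for WT CCR6, 3 for WT DN, 29 for any WT difference and 2 for a differing genotype effect (Neat1 at an edgeR adjusted p of 0.0033 and Gm36723 at 0.034). Own-number correlations were the highest among the 3 numbers for 8 of 12 libraries between genotypes, 26 of 36 between DKO populations and 24 of 36 between WT populations. Low counts limit 4833412C05Rik, Gm11454, Gm41386 and Gm3716 in ILC1, and without molecular identifiers a count covers amplified copies.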
